A study of Mus musculus with 24 samples.

Results

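Trh, Crh, Sst, Ghrh and Gnrh1 encode the precursors of 5 hypothalamic peptides that act on the anterior pituitary. They were chosen by gene symbol and not by a rule on measured values, but with earlier results of these data known. They are 5 of the 45706 genes in the deposited count table. All 5 passed the filter on low counts, as did 15667 genes in all. The question for each was whether its transcript level in the hypothalamus differed after inhibition of PSD-95 or of PICK1.

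Releasing hormones are made by neurons whose axons end in the median eminence, where the peptides enter the portal blood and reach the pituitary. Thyrotropin-releasing hormone (Trh) and corticotropin-releasing hormone (Crh) of the paraventricular nucleus drive the thyroid and adrenal axes, growth hormone-releasing hormone (Ghrh) of the arcuate nucleus stimulates growth hormone, somatostatin (Sst) inhibits it, and gonadotropin-releasing hormone (Gnrh1) from scattered neurons of the septum and preoptic area drives the gonadal axis. Trh, Crh and Sst are also made by many hypothalamic neurons that do not project to the median eminence, and a whole-tissue level holds both.

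Poly(A) RNA of whole hypothalamus was sequenced in 24 libraries from male mice with diet-induced obesity, housed in pairs and weighing 53 g on average. The PSD-95i group (8 libraries) was given 25 mg/kg of UCCB01-147, a compound directed at PSD-95, a scaffold of excitatory synapses. The PICK1i group (8 libraries) was given 56 mg/kg of mPD5, a compound directed at PICK1, which binds subunits of AMPA receptors through its PDZ domain. The Saline group (8 libraries) received isotonic saline. All mice were injected once a day for 5 days and killed 2 h after the last injection, and each inhibitor was given at 1 dose. The protocol counts 6 saline mice where the labels list 8 libraries, and no label ties a library to a mouse, so p-values measure the spread between libraries. In bulk tissue, fewer cells that make a hormone and less of its RNA per cell cannot be told apart.

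Library totals of estimated counts ranged from 4762703 to 9228858. CPM values below are counts relative to library totals that were scaled by the trimmed mean of M values (TMM). Arcuate, paraventricular and lateral hypothalamic markers, such as Npy, Oxt and Hcrt, were detected in all 24 libraries. Saline replicates 2 and 3 held 52000 and 32100 CPM of the pituitary transcript Gh, against at most 40.9 CPM elsewhere. PICK1i replicate 6 held 262 CPM of Slc17a7, a vesicular glutamate transporter abundant in cortex, and 0.222 CPM of Agrp, an arcuate peptide. In the other 23 libraries Slc17a7 was at most 81.5 CPM, in Saline replicate 6, and Agrp was at least 1.52 CPM. Results are given with all 24 libraries and with the 21 that remain without these 3 libraries. Mitochondrially encoded transcripts made up 8.7 to 16.6% of counts in PICK1i, with the highest shares in replicates 1, 2, 6 and 5, against 8.51 to 10.4% in PSD-95i and 7.88 to 10.7% in Saline.

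Per kilobase of annotated transcript, Sst was the most abundant of the 5 transcripts, at 322 ± 73.8 CPM per kb (SD, n = 24), followed by Trh at 117 ± 31 CPM per kb. Ghrh stood at 21.8 ± 10.7 CPM per kb, Gnrh1 at 4.5 ± 1.65 CPM per kb and Crh at 3.46 ± 1.9 CPM per kb. Sst exceeded Trh, Trh exceeded Ghrh, and Ghrh exceeded Gnrh1 in 24 of 24 libraries, although the ranges of Ghrh and Gnrh1 over libraries overlapped. Gnrh1 exceeded Crh in 16 of 24 libraries, so the order of these 2 neighbours lay within their spread.

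**Figure D1:**
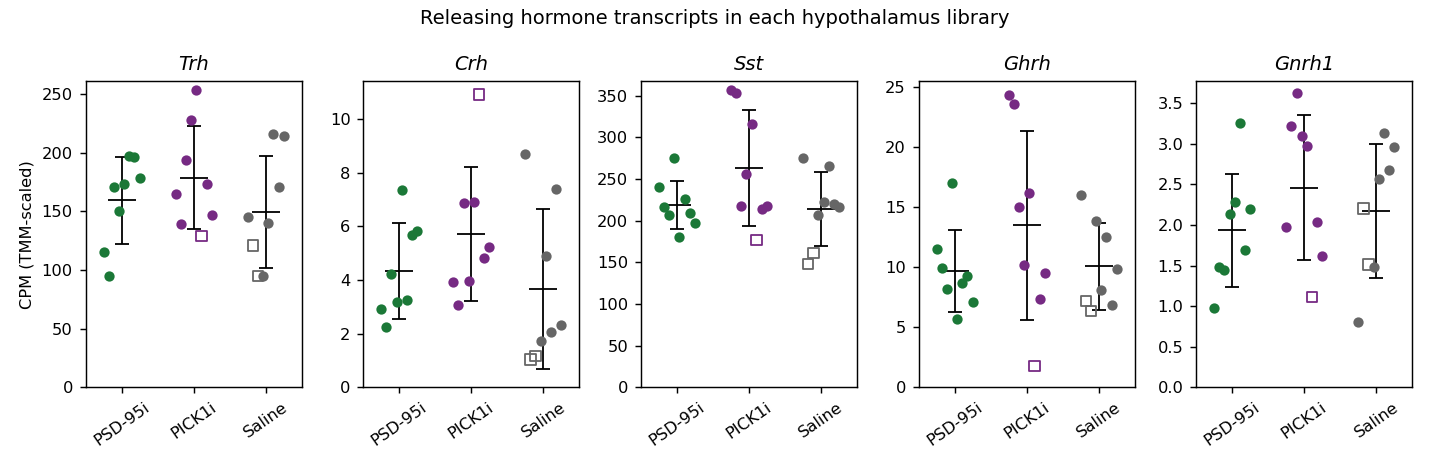
Level of each hormone transcript (y axis, CPM scaled by TMM, from 0) in every PSD-95i, PICK1i and Saline library. Points are libraries, horizontal bars are means and vertical bars are SD (n = 8 each). Open squares are Saline replicates 2 and 3 and PICK1i replicate 6. The 3 groups overlap for every gene, and the lowest Ghrh point, 1.77 CPM, is PICK1i replicate 6.

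The growth hormone axis has a stimulating member, Ghrh, and an inhibiting member, Sst. Ghrh (ENSMUSG00000027643) lies on the minus strand of chromosome 2 at 157329497 to 157347506 (GRCm38, GENCODE M21), and its 3 measured transcripts differ in their first exon. Sst (ENSMUSG00000004366) lies on the minus strand of chromosome 16 at 23889573 to 23890958. No annotated gene overlapped any of the 5 members on either strand. The promoters of Ghrh and Sst are shown because these 2 transcripts varied together across libraries. Each window runs from 250 bases before to 50 bases after a RefSeq start (GRCm38.p6), is read 5′ to 3′ on the minus strand, and carries motif matches in capitals. The first is the Ghrh window at the downstream start, chr2:157337377-157337676, the second the Ghrh window at the upstream start, chr2:157346606-157346905, and the last the Sst window, chr16:23890795-23891094.
Ghrh, downstream start: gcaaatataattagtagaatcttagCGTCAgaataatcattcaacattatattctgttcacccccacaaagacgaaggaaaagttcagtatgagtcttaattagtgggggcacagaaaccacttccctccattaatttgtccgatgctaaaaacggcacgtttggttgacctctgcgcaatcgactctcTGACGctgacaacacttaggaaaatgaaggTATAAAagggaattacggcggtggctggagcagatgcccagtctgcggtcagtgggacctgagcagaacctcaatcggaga
Ghrh, upstream start: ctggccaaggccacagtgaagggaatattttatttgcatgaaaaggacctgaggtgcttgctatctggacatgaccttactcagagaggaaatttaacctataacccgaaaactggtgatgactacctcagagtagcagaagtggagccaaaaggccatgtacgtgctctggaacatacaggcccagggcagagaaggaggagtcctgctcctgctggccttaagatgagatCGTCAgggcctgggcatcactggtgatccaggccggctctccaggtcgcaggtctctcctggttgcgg
Sst: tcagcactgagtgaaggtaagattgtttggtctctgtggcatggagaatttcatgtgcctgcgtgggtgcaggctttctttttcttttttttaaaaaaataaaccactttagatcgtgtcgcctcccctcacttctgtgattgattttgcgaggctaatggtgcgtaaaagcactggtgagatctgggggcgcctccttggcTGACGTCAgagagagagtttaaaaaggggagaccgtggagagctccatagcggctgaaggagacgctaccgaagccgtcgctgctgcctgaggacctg

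The motifs searched were the cyclic AMP response element TGACGTCA and its core TGACG on both strands, the TATA box TATAAA on the given strand, and CCAAT on both strands. The Sst window held TGACGTCA 48 bases before the start (position -48), a sequence found in 1.79% of 32851 RefSeq promoter windows. The core TGACG, found in 20.8% of windows, stood at -61 and, as its complement CGTCA, at -225 in the downstream Ghrh window and at -18 in the upstream one. It also made up the Sst element, where its matches at -48 and -45 overlap. TATAAA, found in 8.32% of windows, stood at -31 of the downstream Ghrh start and in none of the other windows. CCAAT was found in 37.4% of all windows and in none of these. The Trh window, the only other one at hand, held CGTCA at -96. A match describes letters and does not show a binding site.

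Ghrh levels overlapped between all groups. In PSD-95i libraries the lowest, median and highest values were 5.7, 9.01 and 17 CPM, in PICK1i 1.77, 12.6 and 24.4 CPM, and in Saline 6.36, 8.97 and 16 CPM. The highest PICK1i values were 24.4 and 23.6 CPM in replicates 1 and 2, and the lowest, 1.77 CPM from 8 counts, was in replicate 6. Ghrh averaged 9.68 ± 3.44 CPM in PSD-95i, 13.5 ± 7.87 CPM in PICK1i and 10.1 ± 3.64 CPM in Saline (SD, n = 8 each). The log2 fold change was -0.07 ± 0.30 (standard error) for PSD-95i against Saline (edgeR quasi-likelihood adjusted p = 0.949) and 0.41 ± 0.30 for PICK1i against Saline (edgeR adjusted p = 0.372). For PSD-95i against PICK1i it was -0.48 ± 0.30 (95% interval -1.10 to 0.14, edgeR adjusted p = 0.333), with 1 of 8 PSD-95i libraries above the PICK1i median. Without the 3 libraries, the mean was 15.2 ± 6.78 CPM in PICK1i (n = 7) and 11.2 ± 3.54 CPM in Saline (n = 6). The difference of PSD-95i from PICK1i was then -0.62 ± 0.24, with an edgeR p of 0.0175 and an adjusted p of 0.119, and that of PICK1i from Saline was 0.40 ± 0.26 (edgeR adjusted p = 0.376). Without PICK1i replicate 6 alone, PICK1i differed from Saline by 0.57 ± 0.25 (95% interval 0.04 to 1.09), with an edgeR p of 0.0347 and an adjusted p of 0.17. PSD-95i differed from PICK1i by -0.63 ± 0.25 in that fit (edgeR adjusted p = 0.17). Ghrh therefore passed the threshold in no comparison, with or without these libraries.

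Sst, the most abundant member, was also the one whose PICK1i difference was largest relative to its error. Its lowest, median and highest values were 180, 212 and 275 CPM in PSD-95i, 177, 237 and 357 CPM in PICK1i, and 148, 218 and 275 CPM in Saline. PICK1i replicates 1, 2 and 5, with 357, 353 and 316 CPM, lay above every PSD-95i and Saline library, and the other 5 PICK1i libraries lay within the range of those groups. The mean was 219 ± 28.8 CPM in PSD-95i, 264 ± 69.4 CPM in PICK1i and 214 ± 44.2 CPM in Saline (SD, n = 8 each). The log2 fold change of PICK1i against Saline was 0.30 ± 0.14 (95% interval 0.02 to 0.58), with an edgeR p of 0.038 and an adjusted p of 0.151 over all genes. Against PICK1i, PSD-95i differed by -0.27 ± 0.14 (edgeR adjusted p = 0.226), and against Saline by 0.03 ± 0.14 (edgeR adjusted p = 0.95). Sst averaged 276 ± 64.8 CPM in PICK1i (n = 7) and 234 ± 28.4 CPM in Saline (n = 6) when the 3 libraries were left out. PSD-95i then differed from PICK1i by -0.33 ± 0.11 (95% interval -0.56 to -0.10), with an edgeR p of 0.00635 and an adjusted p of 0.0799. In the same fit PICK1i differed from Saline by 0.23 ± 0.12 (edgeR adjusted p = 0.274).

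The 2 PICK1i libraries with the most Sst and Ghrh, replicates 1 and 2, also held the highest mitochondrial shares of the series, at 16.6 and 14%, and the part of this in the hormone values was not tested. In a fit without PICK1i replicates 1, 2, 5 and 6, PICK1i differed from Saline by 0.08 ± 0.13 for Sst and by 0.05 ± 0.26 for Ghrh (edgeR adjusted p = 0.826 and 0.952). PSD-95i differed from PICK1i by -0.05 ± 0.13 for Sst and by -0.12 ± 0.26 for Ghrh in that fit (edgeR adjusted p = 1 for both). All 4 differences were smaller in size with the 4 remaining PICK1i libraries than with all 8. Replicates 1, 2 and 5 held the highest Sst and Ghrh of the PICK1i group and replicate 6 the lowest. This fit therefore left out its highest and its lowest values. The part of mitochondrial share cannot be read from it.

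Trh (ENSMUSG00000005892, chromosome 6, 92242061 to 92244650, minus strand) drives thyrotropin release and takes part in the control of energy use. Its lowest, median and highest values were 94.6, 172 and 197 CPM in PSD-95i, 129, 169 and 253 CPM in PICK1i, and 94.7, 143 and 216 CPM in Saline. PICK1i replicates 4 and 5, at 228 and 253 CPM, lay above all PSD-95i and Saline libraries, and the lowest values were in PSD-95i replicate 2 and Saline replicates 3 and 4. The mean was 160 ± 37.2 CPM in PSD-95i, 178 ± 43.8 CPM in PICK1i and 150 ± 47.6 CPM in Saline (SD, n = 8 each). The log2 fold change was 0.09 ± 0.18 for PSD-95i against Saline (edgeR adjusted p = 0.863), 0.26 ± 0.18 for PICK1i against Saline (edgeR adjusted p = 0.345) and -0.16 ± 0.18 for PSD-95i against PICK1i (edgeR adjusted p = 0.612). The interval of PICK1i against Saline ran from -0.11 to 0.62, that is from 0.929-fold to 1.54-fold. Without the 3 libraries these differences were -0.04, 0.18 and -0.21 (edgeR adjusted p = 1, 0.587 and 0.429).

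Crh (ENSMUSG00000049796, chromosome 3, 19693401 to 19695396, minus strand) starts the adrenal stress response. It rested on 7 to 65 counts per library. Its lowest, median and highest values were 2.23, 3.75 and 7.35 CPM in PSD-95i, 3.07, 5.03 and 10.9 CPM in PICK1i, and 1.04, 2.21 and 8.69 CPM in Saline. Within Saline, replicates 1 and 7 stood at 8.69 and 7.4 CPM and replicates 2, 3 and 4 at 1.04, 1.17 and 1.73 CPM, a spread of 81% of the mean where counting alone gives 18.9%. The spread was 40.9% in PSD-95i and 43.7% in PICK1i, where counting alone gives 17.2 and 16.4%. All 8 PSD-95i and all 8 PICK1i libraries lay above the Saline median, but without the 3 libraries 4 of 8 PSD-95i and 6 of 7 PICK1i libraries did. The log2 fold change was 0.24 ± 0.36 for PSD-95i against Saline (edgeR adjusted p = 0.825) and 0.60 ± 0.36 for PICK1i against Saline (95% interval -0.14 to 1.34, edgeR adjusted p = 0.272). For PSD-95i against PICK1i it was -0.36 ± 0.35 (edgeR adjusted p = 0.561), and -0.19 both without PICK1i replicate 6 and without the 3 libraries (edgeR adjusted p = 0.808 and 0.734). For PSD-95i against Saline, leaving out 1 library gave 0.08 (without Saline replicate 2) to 0.54 (without Saline replicate 1), and without the 3 libraries the difference was -0.06 ± 0.31 (edgeR adjusted p = 1). Without Saline replicate 1 the difference of PICK1i from Saline was 0.92 (edgeR adjusted p = 0.0871), without PICK1i replicate 6 it was 0.43, and without the 3 libraries it was 0.12 ± 0.32 (edgeR adjusted p = 0.858).

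Gnrh1 (ENSMUSG00000015812, chromosome 14, 67745181 to 67749439, plus strand) is made by few neurons and rested on 5 to 27 counts per library. Its lowest, median and highest values were 0.976, 1.91 and 3.26 CPM in PSD-95i, 1.11, 2.5 and 3.63 CPM in PICK1i, and 0.802, 2.39 and 3.13 CPM in Saline. The groups overlapped over nearly their whole range, with a spread of 36% of the mean in PSD-95i, 36.3% in PICK1i and 38% in Saline, where counting alone gives 26.1, 24.3 and 24.8%. The log2 fold change was -0.17 ± 0.26 for PSD-95i against Saline (edgeR adjusted p = 0.831), 0.20 ± 0.26 for PICK1i against Saline (edgeR adjusted p = 0.647) and -0.37 ± 0.26 for PSD-95i against PICK1i (edgeR adjusted p = 0.407). Without the 3 libraries these differences were -0.23, 0.22 and -0.45 (edgeR adjusted p = 1, 0.67 and 0.269). Leaving out 1 library gave -0.32 (without PSD-95i replicate 6) to -0.07 (without PSD-95i replicate 1) for PSD-95i against Saline, and 0.09 (without Saline replicate 1) to 0.29 (without PICK1i replicate 6) for PICK1i against Saline. At this depth the interval of PICK1i against Saline ran from 0.793-fold to 1.66-fold.

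Of the 5 members, 0 passed the threshold of 0.05 for PSD-95i against Saline, where edgeR called 0% of all tested genes. For PICK1i against Saline 0 of 5 passed, where 9.15% of genes were called with all 24 libraries and 0.019% without the 3 libraries. For PSD-95i against PICK1i 0 of 5 passed, where 0% were called with all 24 libraries and 0.00633% without the 3. DESeq2 and limma-voom with sample weights also called 0 of 5 in each comparison. How many of all genes they called differed widely between comparisons and is given in the closing section. The number for DESeq2 in PICK1i against Saline is not given, so its 0 of 5 has no background there. At an unadjusted edgeR p under 0.05 there were 0, 1 and 0 members in the 3 comparisons with all libraries. Of all 15667 tested genes, 1719, 4509 and 3789 were under 0.05 in the same fit. Without the 3 libraries there were 0, 0 and 2 members, the 2 being Sst and Ghrh. No count over all genes was at hand for that fit, so these 2 cannot be set against a background. All 5 fitted differences of PICK1i from Saline were above 0, with a median of 0.30 (0.22 without the 3 libraries), against a median of -0.01 over all genes tested. All 5 of PSD-95i against PICK1i were below 0, with a median of -0.36 (-0.33 without the 3), against -0.01 (0 without the 3) over all genes. These 2 comparisons share the PICK1i libraries. Some members also varied together across libraries, so the 5 signs are not 5 separate results.

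**Figure D2:**
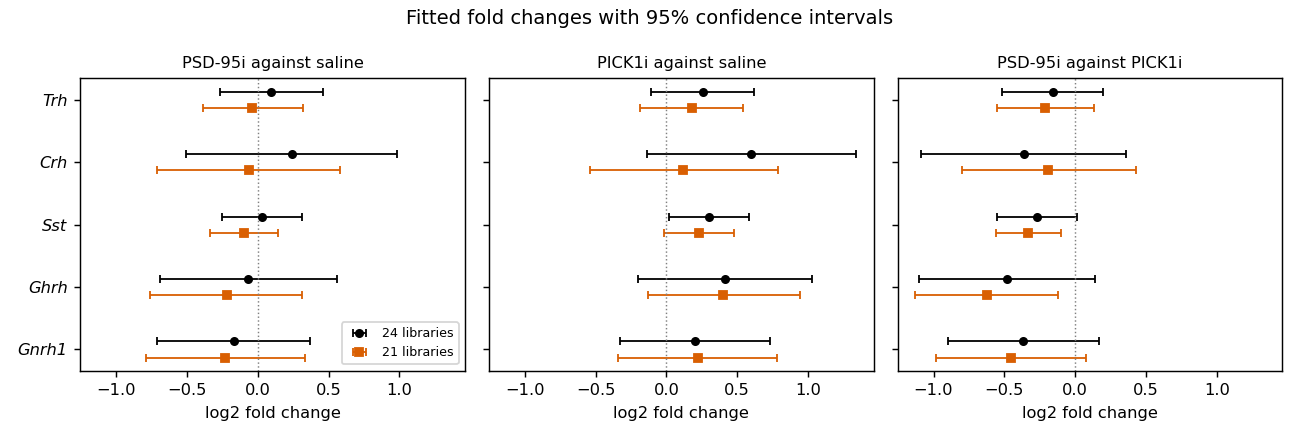
Log2 fold change (x axis) of each hormone gene (rows) in the 3 comparisons, with 95% confidence intervals from the edgeR fit. Circles are fits with all 24 libraries and squares fits with 21 libraries. The interval excludes 0 for Sst in PICK1i against saline with 24 libraries (0.02 to 0.58), and for Sst (-0.56 to -0.10) and Ghrh (-1.13 to -0.12) in PSD-95i against PICK1i with 21 libraries. Adjusted over all genes, none of these passed.

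In the fit of all 24 libraries, the members varied more between libraries of a group than most genes. Without the 3 libraries the SD of Ghrh in PICK1i fell from 58.3 to 44.7% of the mean. That of Crh in Saline fell from 81 to 65.8%, and that of Gnrh1 in Saline rose from 38 to 40.6%. The values below were not given without the 3 libraries. The biological coefficient of variation was 47.6% for Crh, 41.5% for Ghrh, 26.9% for Gnrh1, 24.5% for Trh and 19.1% for Sst, against a median of 12.3% over the genes tested. The dispersion of Crh was above that of 98.3% of tested genes and that of Ghrh above 97.6%, while 18.1 and 32.9% of tested genes had a lower mean CPM. Trh and Sst were variable at high abundance, with a dispersion above that of 90.4 and 81.2% of genes and a mean CPM above that of 93.1 and 95.9%.

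Part of this spread was shared between members. With group means removed and over the 21 libraries, log2 CPM of Sst and Ghrh varied together (Pearson r = 0.823, Spearman rho = 0.765, permutation test, adjusted p = 0.0002 and 0.001 over 10 pairs). The r was 0.752 without the 2 libraries farthest from the Sst median and 0.806 over all 24. Trh and Gnrh1 were the other related pair (r = 0.58, rho = 0.586, permutation test, adjusted p = 0.0281 and 0.0275), with r = 0.576 without the 2 farthest libraries and 0.614 over all 24. The other 8 pairs had r between -0.355 and 0.343 and did not pass. Crh had its largest values with Trh (0.343) and Ghrh (-0.355).

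**Figure D3:**
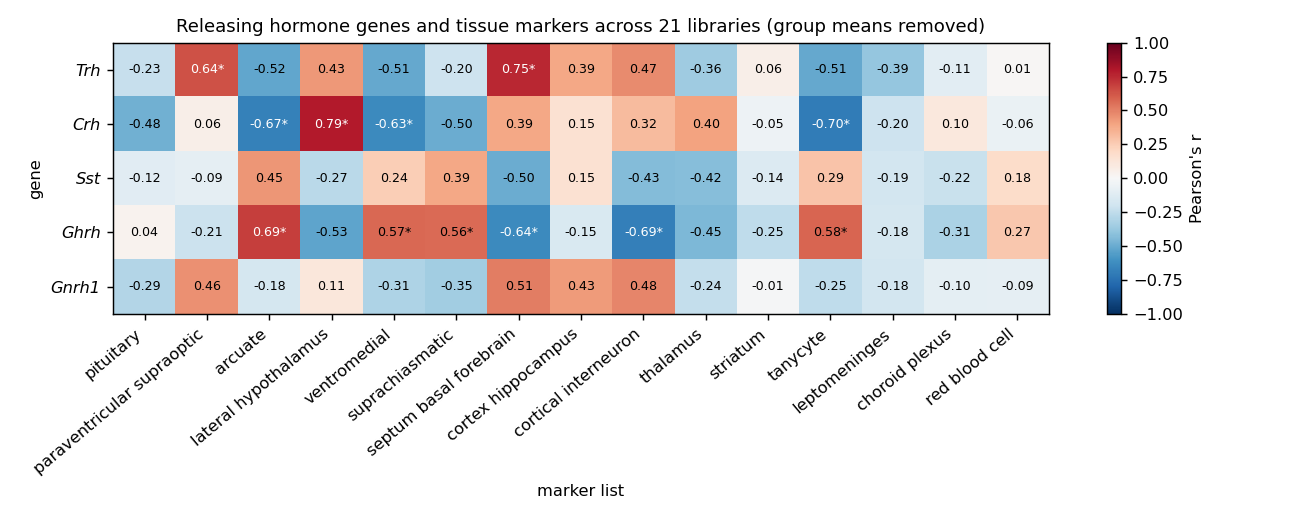
Pearson r of each hormone gene (rows) with the mean level of each marker list (columns) over 21 libraries, after group means were removed. Red is positive and blue negative, and a star marks an adjusted permutation p under 0.05 over 75 relations. The strongest positive cells are Crh with lateral hypothalamic markers (0.79) and Trh with septum and basal forebrain markers (0.75).

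Each member was then set against the mean level of marker genes of hypothalamic nuclei and of neighbouring tissue. Crh was related to lateral hypothalamic markers (r = 0.79, rho = 0.796, permutation test, adjusted p = 0.003 and 0.00375 over 75 relations, r = 0.863 over all 24 libraries). Within that list the relation lay with the arousal peptide Hcrt (r = 0.851), with Pmch (0.797), which encodes melanin-concentrating hormone, and with Lhx9 (0.491), while Qrfp had r = -0.46. With paraventricular and supraoptic markers Crh had r = 0.0565 (permutation test, adjusted p = 0.854). It was inversely related to arcuate (r = -0.674), ventromedial (-0.634) and tanycyte markers (-0.701; permutation tests, adjusted p = 0.0104, 0.0186 and 0.00844). The arcuate relation did not pass over all 24 libraries (r = -0.345, permutation test, adjusted p = 0.203). Over these 24, Crh also passed with suprachiasmatic (r = -0.685), pituitary (-0.612), cortical interneuron (0.583) and septum and basal forebrain markers (0.523). The permutation tests gave adjusted p = 0.0036, 0.00784, 0.0142 and 0.0332. By rho the pituitary relation did not pass (permutation test, adjusted p = 0.0556).

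Ghrh was related to arcuate markers (r = 0.693, rho = 0.604, permutation test, adjusted p = 0.00844 and 0.0342, r = 0.873 over 24 libraries). The arcuate feeding peptides Npy and Agrp had r = 0.807 and 0.64 with it, Kiss1 0.511, Tbx3 0.463 and Tac2 0.352, and the ghrelin receptor Ghsr had -0.421. Ghrh was also related to ventromedial (r = 0.574), suprachiasmatic (0.565) and tanycyte markers (0.579; permutation tests, adjusted p = 0.0477, 0.0494 and 0.0477), the suprachiasmatic one without passing over all 24 libraries (r = 0.381, permutation test, adjusted p = 0.155). It was inversely related to markers of the septum and basal forebrain (r = -0.635) and of cortical interneurons (-0.685; permutation tests, adjusted p = 0.0186 and 0.0104).

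Trh was related to markers of the septum and basal forebrain (r = 0.754, rho = 0.742, permutation test, adjusted p = 0.00375 and 0.00562, r = 0.551 over 24 libraries). In that list the transcription factors Zic1 and Lhx8 had r = 0.732 and 0.718. Trh was also related to paraventricular and supraoptic markers (r = 0.637, rho = 0.657, permutation test, adjusted p = 0.0186 and 0.0198, r = 0.649 over 24 libraries), with all 5 of them above 0, from 0.163 for Avp to 0.629 for Oxt. Gnrh1 had r = 0.513 with septum and basal forebrain markers (permutation test, adjusted p = 0.0829) and 0.237 over 24 libraries (permutation test, adjusted p = 0.439), where it passed with paraventricular and supraoptic markers (r = 0.559, permutation test, adjusted p = 0.0223). Sst passed with none of the 15 lists over 21 libraries. Over all 24 libraries Sst passed with 6 lists by Pearson's r, and by rho only with arcuate (0.577) and thalamus markers (-0.616; permutation tests, adjusted p = 0.0204 and 0.0147). It had r = 0.672 with arcuate, 0.486 with paraventricular and supraoptic and 0.481 with ventromedial markers (permutation tests, adjusted p = 0.00319, 0.0455 and 0.0446). Its r was -0.644 with thalamus, -0.54 with choroid plexus and -0.539 with pituitary markers (permutation tests, adjusted p = 0.00417, 0.0258 and 0.023). The part of dissection in these relations was not tested.

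The summed CPM of these marker lists overlapped between groups. A sum weights abundant genes most, whereas the relations above used the mean log2 level of each list. Lateral hypothalamic markers summed to 261 to 554 CPM in PSD-95i, 378 to 933 CPM in PICK1i and 122 to 779 CPM in Saline, with the highest PICK1i sum in replicate 6 and the lowest Saline sum in replicate 2. Arcuate markers summed to 79 to 141 CPM in PSD-95i, 84.2 to 158 CPM in PICK1i and 72.3 to 150 CPM in Saline. Septum and basal forebrain markers summed to 54.6 to 107 CPM in PSD-95i, 60.6 to 114 CPM in PICK1i and 57.6 to 120 CPM in Saline. The part of these shares in the group differences of Crh, Ghrh and Trh was not tested.

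The genes whose log2 CPM was most like that of each member were ranked by r over the 21 libraries among 13776 genes, with group means not removed, as a description in which libraries share depth and dissection. Crh was nearest to Hcrt (r = 0.85, first of all genes also over 24 libraries at 0.904), then Pmch (0.792) and Cygb (0.784), a globin gene. Within groups, r of Crh with Hcrt was 0.913 in PSD-95i (n = 8), 0.308 in PICK1i (n = 7) and 0.968 in Saline (n = 6). Hcrt itself ranged from 15.3 to 121 CPM in PSD-95i, 26 to 209 CPM in PICK1i and 11 to 171 CPM in Saline. The Saline libraries highest in Crh, replicates 1 and 7, had 171 and 138 CPM of Hcrt, and those lowest, replicates 2, 3 and 4, had 11, 12.4 and 12.7 CPM.

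Ghrh was nearest to the arcuate peptide precursors Cartpt (r = 0.923) and Pomc (0.92), then the synaptotagmin gene Syt5 (0.887). Within groups, r of Ghrh with Cartpt was 0.871 in PSD-95i, 0.978 in PICK1i and 0.9 in Saline, and with Pomc it was 0.92 in PSD-95i and 0.953 in both PICK1i and Saline. Over all 24 libraries, with Saline replicates 2 and 3 included, r with Pomc was 0.159, and in those 2 libraries log2 CPM of Pomc was 13.76 and 14.05, while the remaining Saline libraries held 6.27 to 7.26. Trh was nearest to the transcription factor gene Onecut3 (0.833), with Col15a1 at 0.794. Sst was nearest to the T-type calcium channel gene Cacna1h (0.898), with Syt5 at 0.885, and Gnrh1 to Dusp11 (0.785), Cdc7 (0.736) and Serf1 (0.728). Over 24 libraries Cdc7 had r = 0.412, and Cacna1h and Dusp11 had 0.874 and 0.658.

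**Figure D4:**
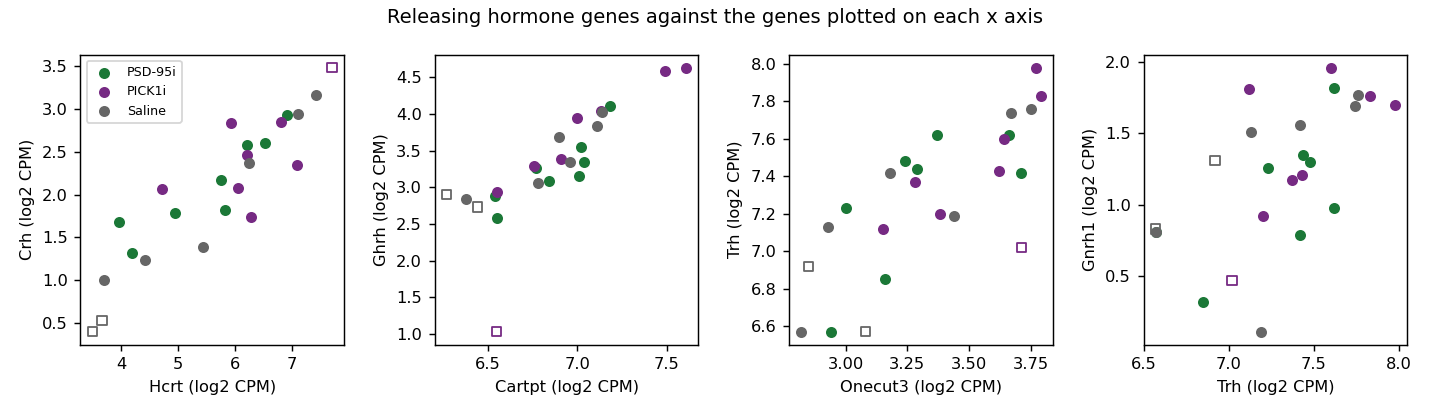
Log2 CPM of a hormone gene (y axis) against another gene (x axis) in each library, for Crh with Hcrt, Ghrh with Cartpt, Trh with Onecut3 and Gnrh1 with Trh. Green is PSD-95i, purple PICK1i and grey Saline, and open squares are Saline replicates 2 and 3 and PICK1i replicate 6. Over the 21 filled points, with group means not removed, r is 0.85, 0.923, 0.833 and, for Gnrh1 with Trh, 0.616. PICK1i replicate 6 has the highest Crh and Hcrt and lies below the other libraries for Ghrh.

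The transcript table split Ghrh by first exon, so that its starts could be compared. Ghrh-202 begins at 157337426, at the downstream promoter printed above, Ghrh-201 at 157346655, at the upstream one, and Ghrh-203 at 157347506. Exons 2 and 5 were identical between them. Ghrh-202 held 43.6 ± 8.6% of Ghrh counts in PSD-95i, 44.8 ± 9.65% in PICK1i and 49.3 ± 8.16% in Saline (SD, n = 8 each). Ghrh-201 held 20.4 ± 3.37% in PSD-95i, 21.9 ± 7.92% in PICK1i and 18.2 ± 6.44% in Saline, which left Ghrh-203, annotated as a processed transcript, 36 ± 7.12% in PSD-95i, 33.3 ± 5.18% in PICK1i and 32.5 ± 3.6% in Saline. The shares differed between groups by less than their SD. For PSD-95i against PICK1i, log2 fold changes were -0.61 ± 0.31 for Ghrh-202 and -0.40 ± 0.34 for Ghrh-201 (edgeR adjusted p = 0.257 and 0.499 over 37955 transcripts). When the 3 libraries were left out, Ghrh-202 differed by -0.76 ± 0.26 (edgeR adjusted p = 0.111). Of the 7 member transcripts 0 passed in any comparison, where edgeR called 2% of transcripts between PICK1i and Saline and 0% in both comparisons of PSD-95i. Counts per Ghrh transcript ran from 2 to 81 per library, and the error of assigning reads between them is not in the test.

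**Figure D5:**
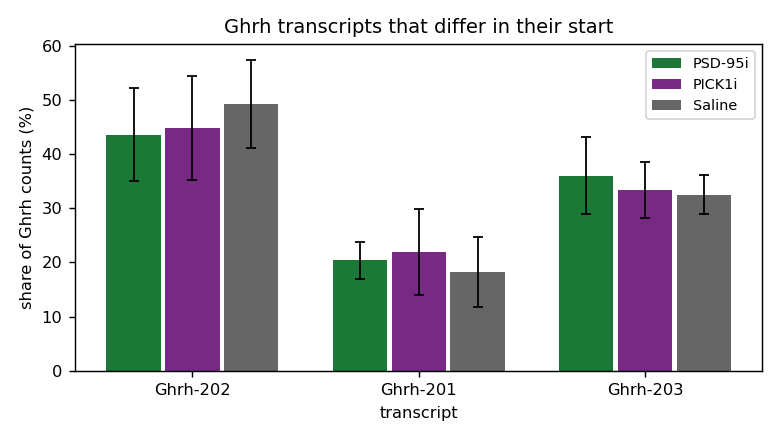
Share of all Ghrh counts (y axis, percent, from 0) held by each Ghrh transcript (x axis) in PSD-95i, PICK1i and Saline. Bars are means and whiskers SD (n = 8 libraries each). Ghrh-202 is the largest share in each group (43.6, 44.8 and 49.3%), and the groups overlap for each transcript.

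Genes that act with the 5 hormones were followed in lists by role. For PICK1i against Saline with all 24 libraries, where 4.88% of all tested genes were called higher and 4.27% lower, the list of other hypophysiotropic signals had 1 of 13 tested genes higher and 0 lower. It was Tac2, which encodes neurokinin B, a stimulator of Gnrh1 neurons, at 28.5 ± 6.15 CPM in PICK1i and 20.2 ± 4.14 CPM in Saline (log2 fold change 0.48 ± 0.12, edgeR adjusted p = 0.0231). Over the 21 remaining libraries it differed by 0.32 ± 0.11 (edgeR adjusted p = 0.138).

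Of 12 tested receptor and binding protein genes, 1 was higher and 2 lower in PICK1i than in Saline. Crhbp, whose protein binds and inactivates CRH, rose to 12.4 ± 1.47 CPM in PICK1i, against 8.28 ± 2.41 CPM in Saline (0.58 ± 0.14, edgeR adjusted p = 0.02). The somatostatin receptor genes Sstr1 and Sstr4 fell, to 6.71 ± 3.09 and 1.51 ± 0.736 CPM in PICK1i, against 11.3 ± 1.59 and 2.89 ± 0.811 CPM in Saline (-0.71 ± 0.19 and -0.87 ± 0.23, edgeR adjusted p = 0.0267 and 0.0234). In the 21 remaining libraries Crhbp, Sstr1 and Sstr4 differed by 0.47 ± 0.13, -0.64 ± 0.18 and -0.89 ± 0.22, with edgeR adjusted p of 0.103, 0.103 and 0.0906. In PSD-95i Sstr1 and Sstr4 stood at 12 ± 1.64 and 3.05 ± 0.425 CPM, and the differences from PICK1i of 0.79 ± 0.19 and 0.94 ± 0.22 did not pass (edgeR adjusted p = 0.0513 for both). The CRH receptor genes Crhr1 and Crhr2 differed by -0.01 ± 0.13 and 0.13 ± 0.13 between PICK1i and Saline (edgeR adjusted p = 0.959 and 0.509).

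Of 14 tested genes for the processing and breakdown of these peptides, 0 were higher and 4 lower in PICK1i than in Saline. They were the prohormone convertase genes Pcsk1 (-0.77 ± 0.23) and Pcsk2 (-0.38 ± 0.12), Pam (-0.33 ± 0.08), whose enzyme amidates TRH, CRH and GnRH, and the peptidase gene Ece1 (-0.42 ± 0.13; edgeR adjusted p = 0.036, 0.042, 0.0215 and 0.0457). In the 21 remaining libraries they differed by -0.14 ± 0.09, -0.17 ± 0.08, -0.24 ± 0.08 and -0.08 ± 0.05 (edgeR adjusted p = 0.369, 0.206, 0.123 and 0.38).

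Of 20 tested genes for hormone feedback, 0 were higher and 7 lower in PICK1i, with a list median of -0.29 (-0.20 without the 3 libraries) against -0.01 over all genes. Among them were the thyroid hormone receptor gene Thrb (-0.55 ± 0.14), the glucocorticoid and mineralocorticoid receptor genes Nr3c1 (-0.30 ± 0.08) and Nr3c2 (-0.41 ± 0.11), the growth factor receptor gene Igf1r (-0.51 ± 0.14), and the estrogen receptor gene Esr1 (-1.27 ± 0.30). The edgeR adjusted p of these 5 lay between 0.0192 for Esr1 and 0.0292 for Igf1r. Over the 21 remaining libraries Nr3c1 and Thrb differed by -0.26 ± 0.08 and -0.34 ± 0.12 and Esr1 by -0.43 ± 0.13 (edgeR adjusted p = 0.121, 0.138 and 0.112).

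Without the 3 libraries, edgeR called 0 genes of these lists for PICK1i against Saline. For PSD-95i against Saline it called 0 in every list with and without them, and for PSD-95i against PICK1i likewise, although without Saline replicates 2 and 3 alone, where 7.64% of all genes were called and 4.13% were called higher, it called 3 receptor and binding genes, 1 processing gene and 3 feedback genes higher in PSD-95i. For PSD-95i against Saline, Crhbp differed by 0.42 ± 0.14 (edgeR adjusted p = 0.356). For PSD-95i against PICK1i with all 24 libraries, the smallest edgeR adjusted p of the lists was 0.0513, for Sstr1, Sstr4 and Pam.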

How the data were processed

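RNA of 24 hypothalamus libraries was isolated with an RNeasy kit, prepared with TruSeq Stranded mRNA and read as 52-base pairs, per the labels' protocols. The deposited tables hold the authors' estimated counts, without normalisation, for genes and for transcripts. They were made with STAR and Salmon on GRCm38 after bcl2fastq 2.20.0, per the submitters' processing notes. Not given in the sources used here are the versions and options of STAR and Salmon, the annotation release and whether strand was used. Gene values were whole numbers, within 0.001, in 94.3% of cases. Among 84 pairs of replicates, 0 were identical.

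Groups and replicate numbers came from the sample titles. Estimated counts were rounded to whole numbers, filtered by filterByExpr (minimum count 10), given TMM factors and tested in edgeR 4.0.16 (quasi-likelihood F test) under R 4.3.3, in 1 fit of 3 groups with 21 residual degrees of freedom. Two-sided p-values were adjusted (Benjamini and Hochberg) over all 15667 genes or all 37955 transcripts that passed the filter, and 0.05 was the threshold. The standard errors share 1 estimate of spread over the groups. Log2 CPM used a prior count of 2. CPM per kb used transcript lengths of GENCODE M21. Counting error was taken as Poisson, and reads carry no molecular identifiers, so it covers counting only.

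Tested correlations used two-sided permutation tests with 100000 resamples, for which the smallest possible p is 1e-05, on log2 CPM with group means removed. They were adjusted over 10 pairs of members or 75 member and marker list relations. A marker list was summarised by the mean of its genes. Genes named beside the members were those of the pathway lists that passed, otherwise up to 2 with the smallest p, and the 3 genes most like each member (mean of at least 1 CPM, clone and model names left out). Some genes that met this rule, and 1 of the pathway lists, are not reported here. Crhr1, Crhr2 and single markers were named for their role. The members and lists were chosen with earlier results of these data known.

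As alternatives, RLE size factors were used, the filter was dropped or raised to a minimum count of 50, and fits were made with the replicate number as a block, library number as a covariate, DESeq2 1.42.0, limma-voom (limma 3.58.1) with sample weights, a fit of only the 2 groups compared, and leaving out single libraries or sets of them. The procedure was tested on simulated data. For edgeR these held larger changes than those fitted for the members, and no libraries of mixed tissue. Whether smaller differences would be found was not examined. Promoter windows were taken from RefSeq (GRCm38.p6), which held 4 windows for 3 of the 5 members.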

Additional observations from a re-analysis of the deposited data

Results flagged for a closer look

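Ghrh in PICK1i replicate 6 stood apart from the other 7 PICK1i libraries. Its log2 CPM was 1.03, and the gap to the next library made up 0.531 of the range of the group, above Dixon's critical value of 0.526 for 8 samples. It rested on 8 counts. Such a gap arises in some groups by chance alone, and it was found in 1 of the 15 sets of 8 log2 values examined. On the linear scale the gap was 0.248 of the range, below the critical value. The same library had the lowest Agrp of the series, at 0.222 CPM, and the highest Slc17a7, at 262 CPM, and the part of this in its Ghrh value was not tested.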

How the results depend on the processing

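Over 36 alternatives, the 15 fold changes of the members gave 534 values, of which 0 passed the threshold and 16 changed sign, all for PSD-95i against Saline. A minimum count of 50 removed Crh and Gnrh1. Without Saline replicates 2 and 3, and likewise without all 3 libraries, Trh, Crh and Sst differed between PSD-95i and Saline by -0.04, -0.06 and -0.10. With library number as a covariate Trh and Ghrh differed by -0.03 and 0.20, and with limma-voom sample weights Trh and Sst by -0.0036 and -0.08. Leaving out 1 library gave -0.04 to 0.09 for Sst and -0.23 to 0.06 for Ghrh. The transcripts Ghrh-201 and Ghrh-203 differed by -0.17 and -0.14 without the 3 libraries. The relations of Crh with arcuate markers (-0.345) and of Ghrh with suprachiasmatic markers (0.381) did not pass over 24 libraries. The smallest adjusted p of a member over the alternatives was 0.0799, for Sst between PSD-95i and PICK1i. For PICK1i against Saline, adjusted p over the alternatives ran from 0.0827 to 0.826 for Sst and from 0.0871 to 0.858 for Crh. The cause of these shifts was not tested.

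Same-numbered libraries of different groups had correlations between -0.194 and 0.15, so the numbers were not taken as pairs. With the replicate number as a block, PICK1i against Saline gave 0.72 ± 0.33 for Crh (edgeR adjusted p = 0.155) and 0.29 ± 0.13 for Sst (edgeR adjusted p = 0.158), 0 members passed in any comparison, and 1127 genes were called for PICK1i against Saline.

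The background counts moved more. For PICK1i against Saline, 1434 genes were called with all libraries, 5 without Saline replicates 2 and 3, 539 without PICK1i replicate 6, 3 without all 3, 0 without PICK1i replicates 1, 2, 5 and 6, 0 with only these 2 groups fitted, 3 with sample weights, and 299 to 2757 when 1 library was left out. For PSD-95i against PICK1i the 0 became 1208 without Saline replicates 2 and 3, 1 without all 3, 665 with the stricter filter, 1209 with DESeq2, 436 with sample weights, and 0 to 2315 when 1 library was left out. PSD-95i against Saline gave 0 in all of these, with 1719 genes at an unadjusted p under 0.05. Depth limits Gnrh1, where counting alone gives a spread of at least 24.3% of the mean.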
